A study of Mus musculus with 6 samples.

Results

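Glycogen metabolism was examined in the RNA sequencing data through 9 genes, chosen by name as enzymes of glycogen synthesis and breakdown and their regulators: Gyg, Ugp2, Gys1, Gbe1, Pygb, Pygl, Ppp1r3c, Gsk3a and Gsk3b. All 9 were found among the 54532 genes of the deposited table. The cells were MC3T3-E1, an established line of mouse calvarial pre-osteoblasts, and the labels call them osteoblasts. Every culture received osteogenic medium, which holds β-glycerophosphate, ascorbic acid and dexamethasone, so the controls carried those agents too. The control group had 3 samples, and the metformin group had 3 samples that also received metformin, a biguanide drug given in type 2 diabetes. The dose of 0.2 mM and the induction time of 3 days come from the study's text, since the labels give neither. The study calls the samples biological replicates, but they come from 1 cell line, and the p-values measure only the spread between these cultures. The comparison asks how the transcripts for building and degrading glycogen stand in differentiating osteoblasts with and without metformin.

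Glycogen is a branched store of glucose. Ugp2 makes the activated sugar UDP-glucose, Gyg encodes glycogenin, the protein that primes a new chain, Gys1 is the synthase that lengthens it, and Gbe1 adds the branches. Phosphorylases release glucose phosphate from the chains, with isoforms named for liver (Pygl), brain (Pygb) and muscle (Pygm). The kinases Gsk3a and Gsk3b phosphorylate and restrain glycogen synthase, and Ppp1r3c, also called PTG, brings protein phosphatase 1 to glycogen, where it activates the synthase and inactivates phosphorylase. Much of this control acts on the proteins and is not visible in transcript levels. Osteoblast-lineage cells take up glucose and can store glycogen.

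The libraries held 18399861 to 22111790 reads, recovered from the deposited values, which are FPKM (reads scaled to gene length and sequencing depth). A gene without reads could hold up to 3 of them, at most 1.6e-05% of a library, as far as counting error goes. The 3 metformin libraries had Pearson correlations of 0.992 with each other across genes, whereas control replicate 1 had correlations of 0.96 and 0.952 with control replicates 2 and 3. Across genes, its deviation from those controls had a Spearman correlation of -0.668 with GC content, and genes are not independent replicates. Its values are given below for each tested member, and calls of other glycogen genes that appear only without it are named. All 9 osteoblast markers examined, among them Runx2, Sp7, Col1a1 and Ibsp, passed the level filter, with summed levels of 10509 to 12318 FPKM in the controls and 7422 to 7804 FPKM with metformin. Of these markers 2 were called higher (Col1a1 and Col1a2), where 13.2% of all tested genes were, and 2 lower (Spp1 and Ibsp), where 9.28% were. Mean FPKM was 7703 in the controls and 2704 with metformin for Spp1, and 814 and 265 for Ibsp. It was 1339 and 2487 for Col1a1, and 970 and 1444 for Col1a2, so the sums do not stand for each marker. Alpl had means of only 3.16 and 2.71 FPKM and Bglap of 8.04 and 5.37, and both overlapped between the groups. Postn overlapped too, at 626 and 619. Every metformin sample was below the controls for Runx2 (means 30.5 and 26.7 FPKM) and above them for Sp7 (41.6 and 53.3), and neither was called. The 5 skeletal muscle markers summed to at most 0.427 FPKM in any sample, with no read of Myod1, Myog or Myh4, and the 4 hepatocyte markers summed to at most 1.03 FPKM. The 5 adipocyte markers summed to 1.65 to 3.18 FPKM in the controls and 1.89 to 2.31 with metformin, and the 4 chondrocyte markers to 6.47 to 11.9 and 8.36 to 9.75. The adipocyte sum was mostly Fabp4 and the chondrocyte sum nearly all Col2a1. The 5 macrophage and blood markers summed to 1.97 to 2.18 FPKM in the controls and 1.12 to 1.35 with metformin, nearly all of it Cd68, which was called lower, with at most 8 reads of Csf1r in a sample and none of Tyrobp, and the 4 endothelial markers to at most 0.131 FPKM in any sample. In such bulk samples, fewer cells of a type and less RNA per cell cannot be told apart.

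Ppp1r3c fell with metformin, while Gys1 and Pygb rose. The fold changes below are differences of log2(FPKM + 1), metformin minus control, tested with limma-trend across all 12681 genes with a mean of at least 0.5 FPKM. This scale understates the changes of low genes. Of the 9 members 8 passed that filter, and Pygl did not. With a Benjamini-Hochberg adjusted p-value under 0.05, 2 of the 8 were called higher, where 13.2% of all tested genes were, and 1 was called lower, where 9.28% were. Together these were 3 of 8, where 22.5% of all tested genes were called. The metformin and control samples did not overlap for 5 of the 8, against 44.1% of all tested genes. Metformin lay above the controls for 4 of them (Gys1, Gbe1, Ugp2 and Pygb), where 23.6% of all tested genes did, and below for Ppp1r3c, where 20.5% did. The median log2 fold change of the 8 was 0.23, and that of all tested genes was 0.0053. These shares of 8 genes were not tested against the background. The log2 fold changes of the members ranged from -1.95 to 0.61.

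**Figure D1:**
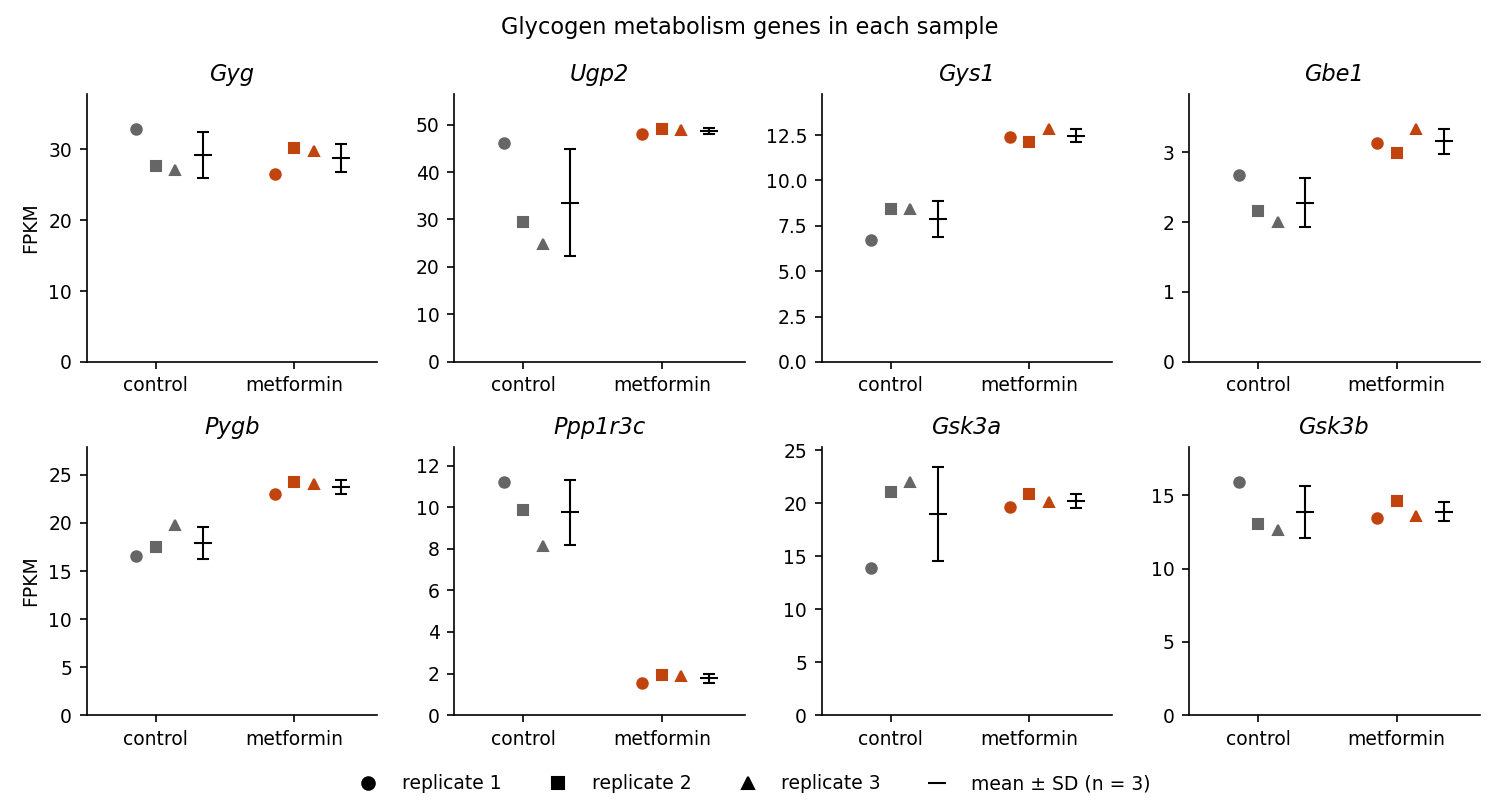
FPKM (y axis, from 0) of the 8 tested members in each control and metformin sample (x axis), with the mean ± SD of 3 samples as a black bar and the replicate number shown by the marker. Ppp1r3c lies between 8.14 and 11.2 FPKM in the controls and between 1.54 and 1.91 with metformin, and control replicate 1 (circle) stands apart from the other controls for Ugp2 and Gsk3a.

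The sequences upstream of the 3 called genes are shown because these genes moved in opposite directions. Each is the stretch of the RefSeq promoter window (GRCm38.p6) that lies before the start of the gene in the deposited table and outside annotated exons, read 5′ to 3′ on the strand of the gene. The stretches are chr19:36736654-36736854 on the minus strand for Ppp1r3c, chr7:45434710-45434843 on the plus strand for Gys1 and chr2:150786546-150786734 on the plus strand for Pygb. They hold 201, 134 and 189 bases, and the start of Gys1 lies inside Ruvbl2, a gene of the opposite strand. Capitals mark every match, on either strand, to the E-box motif CACGTG, the CCAAT box, the GC box written GGGCGG and the TATA motif TATAAA. They also mark GCGTG, a form of the hypoxia response core. The other form, ACGTG, was not searched for. It is part of CACGTG, and its reverse complement CACGT also stands unmarked in the stretches of Ppp1r3c and Pygb.
Ppp1r3c: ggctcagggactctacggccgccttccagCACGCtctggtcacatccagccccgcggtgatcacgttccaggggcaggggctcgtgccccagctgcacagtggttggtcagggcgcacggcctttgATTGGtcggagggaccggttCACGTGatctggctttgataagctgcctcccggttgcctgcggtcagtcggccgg
Gys1: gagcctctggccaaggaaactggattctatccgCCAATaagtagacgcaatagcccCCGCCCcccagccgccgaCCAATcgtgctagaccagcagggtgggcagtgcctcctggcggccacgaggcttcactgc
Pygb: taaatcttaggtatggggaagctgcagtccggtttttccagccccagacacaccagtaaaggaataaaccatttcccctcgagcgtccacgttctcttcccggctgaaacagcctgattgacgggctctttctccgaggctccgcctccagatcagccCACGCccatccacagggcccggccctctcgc

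The upstream stretch of Ppp1r3c held 1 match to CACGTG, a core read by basic helix-loop-helix factors, and 4.36% of the 32851 RefSeq windows hold one at the same positions. It also held 1 match to GCGTG and 1 to the CCAAT box, which are present in 22.7% and 28.6% of windows. The stretch of Gys1 had no match to CACGTG or GCGTG, and held 2 matches to CCAAT (22.7% of windows) and 1 to the GC box (27.7% of windows). The stretch of Pygb held only 1 match to the motifs searched for, to GCGTG (21.1% of windows). TATAAA, held by 6.94% to 9.18% of windows, was found in none of the 3 stretches, and no matches overlapped. These matches are letters only, and binding was not measured.

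Ppp1r3c (ENSMUSG00000067279, chromosome 19, 36731737 to 36736653, minus strand) showed the largest change of the members. Its control samples had 11.2, 9.87 and 8.14 FPKM, and its metformin samples had 1.54, 1.91 and 1.87 FPKM. Every metformin sample was below every control. The values rested on 557, 563 and 435 reads in the controls and 83, 113 and 99 reads with metformin. The mean was 5.50 times as high in the controls, at 9.74 ± 1.54 FPKM (SD, n = 3) against 1.77 ± 0.20 (SD, n = 3). The log2 fold change was -1.95 (95% interval -2.25 to -1.64, adjusted p = 0.000180 by limma-trend). In the order of log2 fold changes of the 12681 tested genes, from the most negative, it stood at place 21. The call was kept in all 15 alternative analyses, with log2 fold changes from -2.44, with voom on the recovered reads, to -1.85, without control replicate 1. No other gene overlaps Ppp1r3c in the table, and no transcript of another gene was near-identical to it.

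Ppp1r3c belongs to a family of subunits that target protein phosphatase 1 to glycogen, and none of the 3 others that could be tested passed the test. Ppp1r3b, the subunit first known from liver, had 12.2, 8.83 and 7.70 FPKM in the controls and 8.04, 8.76 and 9.44 with metformin, a log2 fold change of -0.10 (95% interval -0.48 to 0.29). Ppp1r3d had log2 fold change 0.04 (interval -0.29 to 0.38) and Ppp1r3e 0.15 (interval -0.27 to 0.56) at means of 1.36 to 2.38 FPKM. Ppp1r3f was under the filter, and Ppp1r3a, the muscle subunit, and Ppp1r3g had no read in any sample. The share of Ppp1r3c in the summed FPKM of the family was 43.4%, 43.2% and 41.1% in the controls and 11.7%, 12.4% and 12.4% with metformin. The sum over the family was 22.8 ± 3.02 FPKM in the controls and 14.6 ± 1.21 with metformin, and without Ppp1r3c it was 13.1 ± 1.49 and 12.8 ± 1.00 (SD, n = 3 each). The family sum was thus lower in every metformin sample, and the rest of the family overlapped between the groups. These sums were formed after the values were seen and were not tested. The catalytic subunits of the phosphatase, Ppp1ca, Ppp1cb and Ppp1cc, did not pass the test either, with log2 fold changes of 0.20, 0.03 and -0.30. All 3 metformin samples were below the controls for Ppp1cc (71.3 to 73.4 against 77.1 to 97.4 FPKM, adjusted p = 0.0996 by limma-trend). Without control replicate 1, Ppp1cc was called lower (-0.41, adjusted p = 0.00137) and Ppp1cb higher (0.24, adjusted p = 0.0210), and the GC correction also gave a call for Ppp1cc (-0.37, adjusted p = 0.0369).

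**Figure D2:**
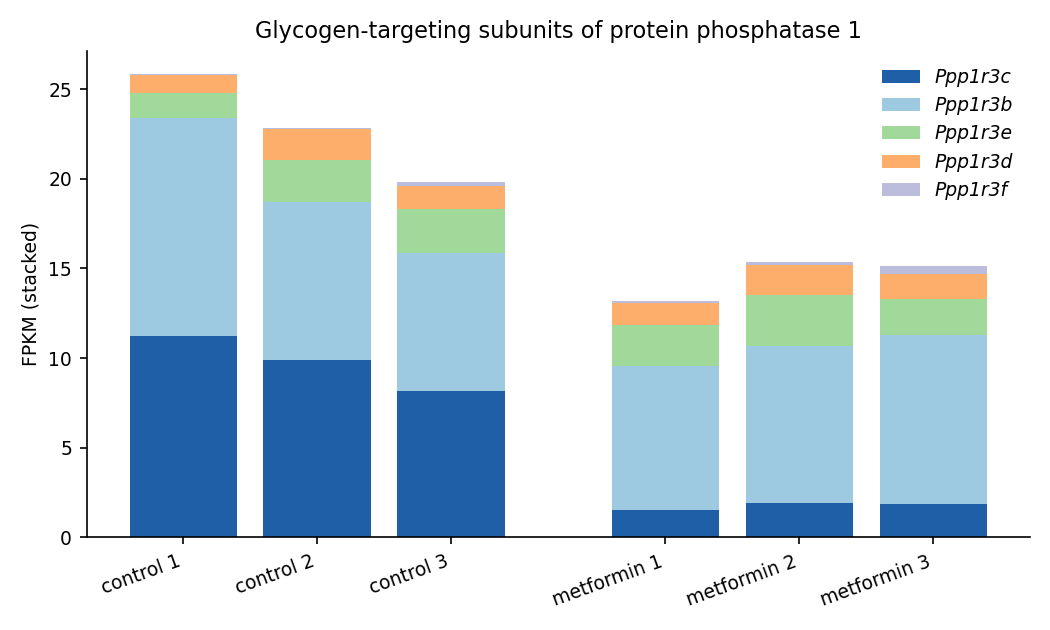
Stacked FPKM (y axis, from 0) of the detected glycogen-targeting subunits of protein phosphatase 1 in each of the 6 samples (x axis), 1 color per gene. Ppp1r3c makes up 41.1% to 43.4% of the column in the controls and 11.7% to 12.4% with metformin, while the other subunits together reach 11.6 to 14.6 FPKM in every sample.

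On the synthesis side, Gys1 rose and the transcript of the primer did not pass the test. Gys1 (ENSMUSG00000003865, chromosome 7, 45434844 to 45456619, plus strand) had 6.74, 8.45 and 8.45 FPKM in the controls and 12.4, 12.1 and 12.9 FPKM with metformin. The groups were well apart and the lowest control was replicate 1. The mean was 1.58 times as high with metformin, and the log2 fold change was 0.61 (95% interval 0.36 to 0.85, adjusted p = 0.00768 by limma-trend). It was called in all 15 alternatives, with log2 fold changes from 0.51 to 0.67. The liver synthase Gys2 had 1 read in control replicate 3 and none elsewhere, so detected synthase transcript was almost only Gys1.

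The start of Gys1 lies inside Ruvbl2, a helicase gene of the opposite strand, and 290 bases of their transcripts are identical. Whether the counting used strand is not given in the sources used here, and without strand the reads of that stretch cannot be told apart. Ruvbl2 had 10.9, 13.2 and 13.0 FPKM in the controls and 14.8, 13.1 and 13.7 with metformin, and its log2 fold change of 0.16 did not pass the test (adjusted p = 0.315 by limma-trend). The level of the neighbor overlapped between the groups where that of Gys1 did not, and the source of the shared reads was not tested.

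Gyg (chromosome 3, 20122084 to 20155317) had 32.9, 27.6 and 27.0 FPKM in the controls and 26.6, 30.2 and 29.7 with metformin. The groups overlapped, and the log2 fold change was -0.01 with a 95% interval from -0.27 to 0.24. An increase as large as that of Gys1 lies outside this interval. The ratio of Gys1 to Gyg FPKM was 0.204, 0.306 and 0.313 in the controls and 0.466, 0.402 and 0.433 with metformin. It was higher in each metformin sample, as a description chosen after the values were seen.

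Ugp2 and Gbe1 were above all controls in every metformin sample but did not pass the test with all 6 samples. Ugp2 (chromosome 11, 21321138 to 21371201) had 46.2, 29.5 and 24.9 FPKM in the controls and 47.9, 49.2 and 48.9 with metformin. Control replicate 1 alone came near the metformin level. The log2 fold change was 0.57 with a wide 95% interval, 0.06 to 1.08 (adjusted p = 0.104 by limma-trend). Without that control it was 0.82 (adjusted p = 0.000459), and between 0.39 and 0.58 (adjusted p = 0.205 to 0.245) with another sample left out. Gbe1 (chromosome 16, 70313949 to 70569716) had 2.67, 2.16 and 2.01 FPKM in the controls and 3.13, 2.99 and 3.34 with metformin, from 211 to 349 reads. Its log2 fold change was 0.35 (95% interval 0.10 to 0.59, adjusted p = 0.0561), close to the threshold. Voom on the recovered reads gave 0.48 (adjusted p = 0.0426), and without control replicate 1 it was 0.43 (adjusted p = 0.00565).

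On the breakdown side, the cells carried the brain isoform of phosphorylase, and its transcript rose. Pygb (ENSMUSG00000033059, chromosome 2, 150786735 to 150831758, plus strand) had 16.6, 17.5 and 19.8 FPKM in the controls and 23.0, 24.3 and 24.0 with metformin. All metformin samples lay above the controls, and their mean was 1.32 times as high. The log2 fold change was 0.39 (95% interval 0.17 to 0.61, adjusted p = 0.0257 by limma-trend). The call was kept in 10 of 15 alternatives. It was lost with the replicate number as a block (adjusted p = 0.0796) and in 4 of the 6 analyses without 1 sample, namely without control replicate 2 (adjusted p = 0.0782) and without metformin replicate 1, 2 or 3 (adjusted p = 0.0926 to 0.116), while the log2 fold change stayed between 0.34 and 0.46.

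Pygl, the liver isoform (chromosome 12, 70190811 to 70231488), had 1 read in control replicate 3 and none in the other 5 samples, and 3 reads would be 0.020 to 0.024 FPKM. Differences in Pygl were not detectable at this depth. The muscle isoform Pygm ranged from 0.46 to 0.89 FPKM in the controls and from 0.29 to 0.81 with metformin (log2 fold change -0.13, adjusted p = 0.624). Pygb therefore made up 95.7% to 97.3% of the phosphorylase FPKM in the controls and 96.6% to 98.8% with metformin, and the groups overlapped (exact two-sided permutation test, p = 0.2).

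Gys1 and Pygb both rose, and the ratio of synthase to phosphorylase transcript was among the 3 ratios tested. The ratio of Gys1 to the sum of Pygb, Pygl and Pygm was 0.395, 0.465 and 0.408 in the controls and 0.521, 0.494 and 0.524 with metformin. It was higher in every metformin sample, with means of 0.423 ± 0.037 and 0.513 ± 0.017 (SD, n = 3 each). The exact two-sided permutation test gave p = 0.1, the smallest that 3 against 3 samples allow, and 0.3 adjusted over the 3 ratios tested.

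**Figure D3:**
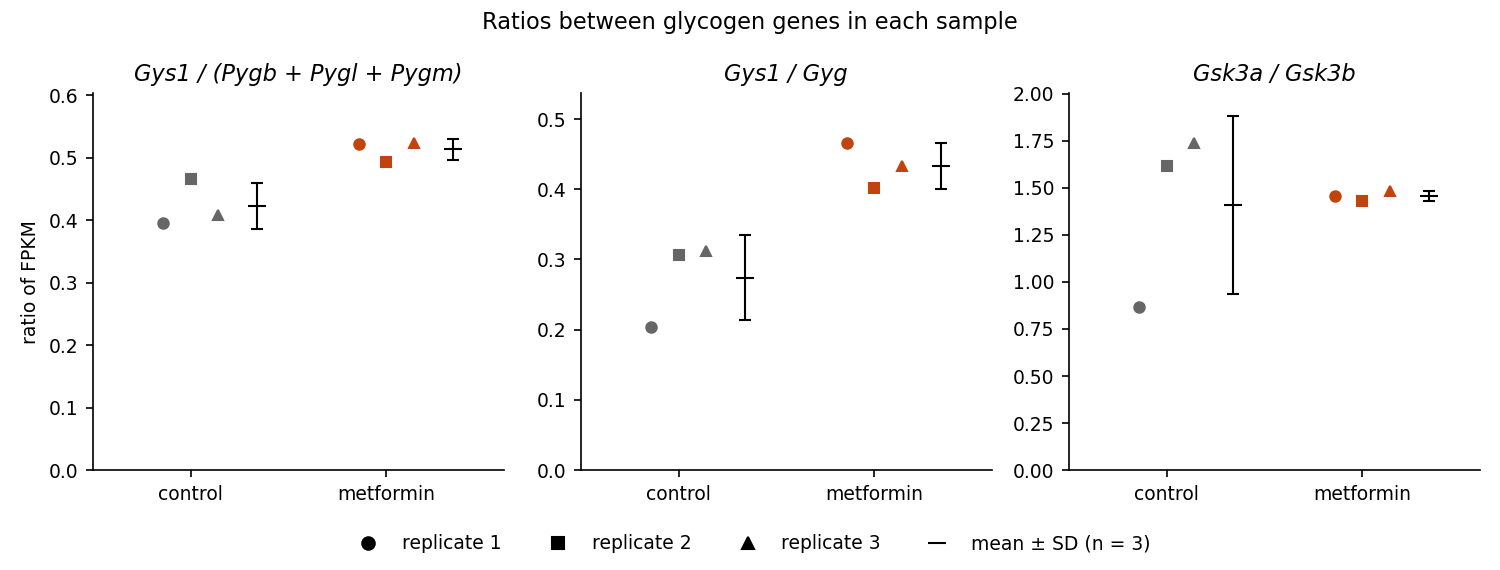
Ratios of FPKM (y axes, from 0) in each control and metformin sample (x axis), with the mean ± SD of 3 samples as a black bar: Gys1 to the summed phosphorylases, Gys1 to Gyg, and Gsk3a to Gsk3b. The first and second do not overlap between the groups, while the third runs from 0.869 in control replicate 1 to 1.74 in control replicate 3, around the metformin values of 1.43 to 1.48.

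The glycogen synthase kinases did not pass the test. Gsk3a (chromosome 7, 25228258 to 25237851) had 13.8, 21.04 and 22.0 FPKM in the controls and 19.6, 20.9 and 20.1 with metformin. The control range enclosed the metformin range, with replicate 1 below and replicates 2 and 3 above it. The log2 fold change was 0.11 (95% interval -0.30 to 0.52), and without control replicate 1 it was -0.09 (adjusted p = 0.250 by limma-trend). Its transcript shares 210 identical bases with 9130221H12Rik, an antisense gene that had 2.43, 2.33 and 1.94 FPKM in the controls and 1.53, 1.16 and 1.66 with metformin. Its metformin samples were all below the controls (log2 fold change -0.40, adjusted p = 0.0529), and it was called in 4 of 15 alternatives.

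Gsk3b (chromosome 16, 38089001 to 38246084) had 15.9, 13.0 and 12.6 FPKM in the controls and 13.5, 14.6 and 13.6 with metformin, a log2 fold change of 0.01 (95% interval -0.25 to 0.26). The direction of both kinases turned under some alternatives, and neither was called in any. The ratio of Gsk3a to Gsk3b was 0.869, 1.62 and 1.74 in the controls and 1.46, 1.43 and 1.48 with metformin (exact two-sided permutation test, p = 1). The controls spread far more widely than the metformin samples. The summed FPKM of both kinases was 32.8 ± 2.67 in the controls and 34.1 ± 1.29 with metformin (SD, n = 3 each).

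**Figure D4:**
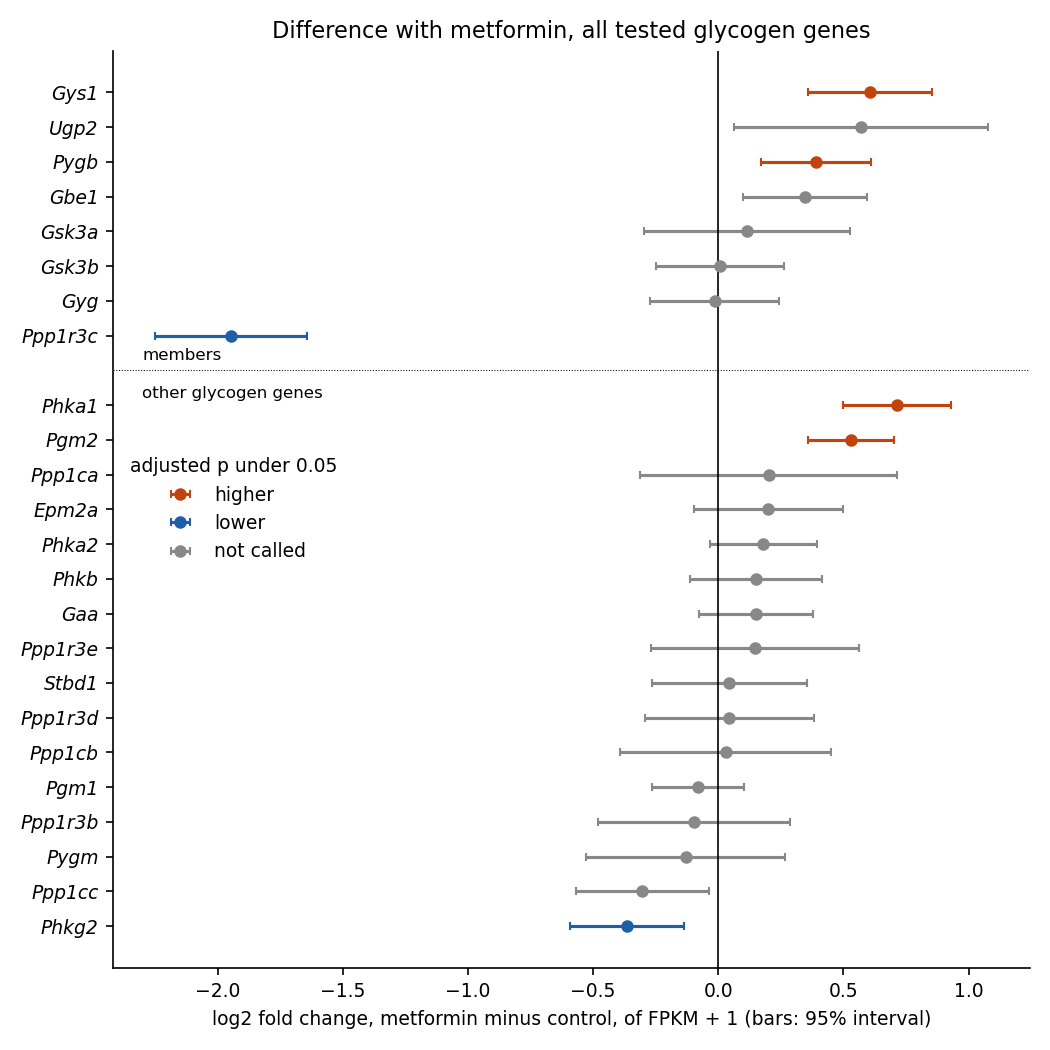
Log2 fold change of FPKM + 1, metformin minus control (x axis), with 95% intervals, of the 8 tested members (top) and the 16 other tested glycogen genes (bottom), colored by the limma-trend call at an adjusted p-value of 0.05. Ppp1r3c at -1.95 lies apart from all the others, which fall between -0.36 and 0.71.

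Levels per length can be ordered within a group. In the controls the mean FPKM decreased from Ugp2 (33.6 ± 11.2) over Gyg (29.2 ± 3.25), Gsk3a (19.0 ± 4.47), Pygb (17.9 ± 1.65), Gsk3b (13.9 ± 1.79), Ppp1r3c and Gys1 to Gbe1 (2.28 ± 0.35) and Pygl (SD, n = 3 each). Of these neighbors Ugp2 and Gyg, Gsk3a and Pygb, and Ppp1r3c and Gys1 overlapped between samples. With metformin no neighbors overlapped, and the order was Ugp2 (48.7 ± 0.66), Gyg (28.8 ± 1.98), Pygb (23.8 ± 0.70), Gsk3a (20.2 ± 0.65), Gsk3b (13.9 ± 0.65), Gys1 (12.5 ± 0.37), Gbe1 (3.15 ± 0.17), Ppp1r3c and Pygl. By the deposited gene lengths, Ppp1r3c thus moved from place 6 to place 8, below the branching enzyme. That length is 4789 bases for Gys1, whose longest transcript has 3678, and 2719 for Ppp1r3c, whose longest transcript has 2725. The order with other lengths was not examined.

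The place of control replicate 1 among the controls followed the GC content of the members. For the 5 tested members with the lowest GC content, Ugp2 (39.1%), Gbe1 (42.3%), Gsk3b (46.1%), Ppp1r3c (46.2%) and Gyg (48.7%), it was above the mean of the other controls, by 0.25 (Gbe1) to 0.75 (Ugp2) in log2(FPKM + 1). For the 3 with the highest, Pygb (54.5%), Gys1 (55.4%) and Gsk3a (59.8%), it was below, by -0.15, -0.29 and -0.60. Without this sample, 4 members were called higher, Gys1, Pygb, Ugp2 and Gbe1, where 23.4% of all tested genes were, and Ppp1r3c was called lower, where 20.4% were, so that 5 of 8 were called beside 43.8% of all. Correcting each library for its dependence on GC content gave the same 4 and 1, where 16.3% of all tested genes were called higher, 19.2% lower and 35.4% either way, with log2 fold changes of 0.62 for Ugp2 (adjusted p = 0.00680) and 0.32 for Gbe1 (adjusted p = 0.0101 by limma-trend).

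**Figure D5:**
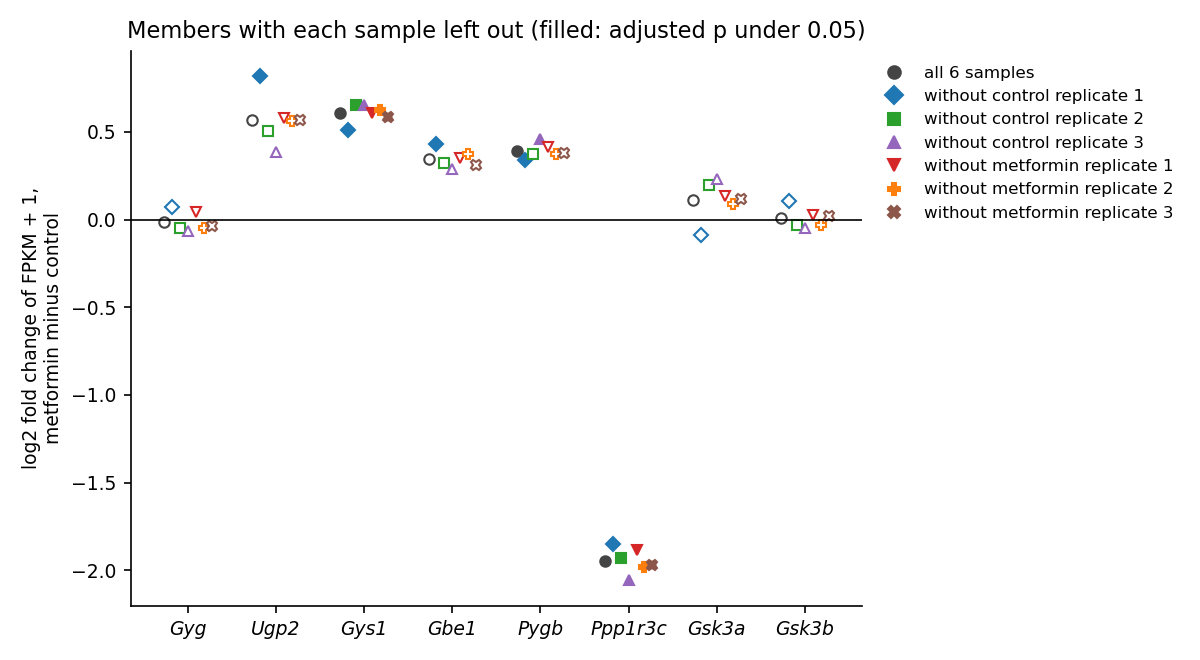
Log2 fold change of FPKM + 1, metformin minus control (y axis), of each tested member (x axis) with all 6 samples and with each sample left out in turn, where filled markers have an adjusted p-value under 0.05. Gys1 and Ppp1r3c are filled throughout, Pygb in 3 of 7 analyses, and Ugp2 and Gbe1 only without control replicate 1.

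Further genes of the pathway were taken from a list of 23 in the table, of which 16 were tested. Metformin samples were called higher for 2 (13.2% of all tested genes) and lower for 1 (9.28%), and the median log2 fold change was 0.09. Both rises were kept in all 15 alternatives. Phka1, the regulatory alpha subunit of phosphorylase kinase named for muscle, had 3.31, 3.15 and 2.80 FPKM in the controls and 5.28, 6.04 and 5.76 with metformin (log2 fold change 0.71, adjusted p = 0.00229 by limma-trend). The gene listed as Pgm2, a phosphoglucomutase on chromosome 4 that RefSeq lists as Pgm1, had 9.81, 9.45 and 9.35 FPKM in the controls and 14.1, 14.03 and 14.5 with metformin (log2 fold change 0.53, adjusted p = 0.00307). Its relative listed as Pgm1, on chromosome 5, had a log2 fold change of -0.08 (95% interval -0.27 to 0.10).

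Phkg2, a catalytic subunit of phosphorylase kinase, was lower, at 2.74, 2.90 and 3.31 FPKM in the controls and 1.92, 2.26 and 2.10 with metformin (log2 fold change -0.36, adjusted p = 0.0367 by limma-trend). This call was lost in 5 of the 6 analyses without 1 sample, all but that without control replicate 1, with the replicate block and without a filter on low values. The subunits of phosphorylase kinase thus moved both ways, since the alpha subunit Phka1 was higher, and Phka2 and Phkb did not pass the test (log2 fold changes 0.18 and 0.15), although Phkb was called without control replicate 1 (0.26, adjusted p = 0.0165). The kinase subunit gene Phkg1 and the phosphoglucomutase-like gene Pgm2l1 were under the level filter.

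Neither the lysosomal glucosidase Gaa nor Stbd1, which binds glycogen, passed the test, with log2 fold changes of 0.15 and 0.04. Epm2a, the glycogen phosphatase laforin, had a log2 fold change of 0.20 (95% interval -0.10 to 0.50), and 0.31 without control replicate 1 (adjusted p = 0.0363 by limma-trend). Its partner Nhlrc1, malin, had no read.

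The tested genes with a pattern most like that of Gys1 were Micall2, Pgk1-rs7 and Fads3. Likeness was the root mean square difference of the mean-centered log2(FPKM + 1) over the 6 samples, and it was 0.022, 0.030 and 0.030, with log2 fold changes of 0.58, 0.60 and 0.59. The nearest to Ppp1r3c were Gm28661 (0.099), Gm28439 (0.14) and Sesn1 (0.14), with log2 fold changes of -2.03, -1.95 and -1.71. Of these 6 genes Pgk1-rs7 has a transcript identical to that of Pgk1 over 1255 bases and to that of Gm5537 over 1251. Gm28661 is identical to mt-Co2 over 681 bases and Gm28439 to mt-Nd4 over 876. Pgk1-rs7 is also near-identical to AC131796.1 and Pgk1-ps1, and Gm28661 to Gm13341. Reads of Pgk1-rs7, Gm28661 and Gm28439 could thus belong to those genes. Pgk1-rs7 also passed the level filter only through its metformin samples, at means of 0.43 FPKM in the controls and 1.16 with metformin.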

How the data were processed

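RNA from 3 control and 3 metformin cultures was sequenced, and the deposited table gives a value per gene and sample without naming a unit. The values were identified as FPKM: the deposited values behave as reads over gene length and effective library size. Multiplied by length, 100% of those above 0 fell on integer steps of their sample (tolerance 0.01 reads), which recovered the reads. The deposited gene length, of other unit, is in base pairs. The submitters' processing notes name the aligner Bowtie 0.12.2 and builds mm8 and mm9, without tying them to the table, and the counter is not given in the sources used here. Of the table, 53499 of 54409 matched identifiers have the coordinates of GENCODE M21 (GRCm38), 8 of the 9 members among them; Ppp1r3c differs at one end. The authors tested with DESeq2. Columns of other samples numbered 0.

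The table holds no counts, so limma 3.58.1 (R 4.3.3) with an intensity trend was fitted to log2(FPKM + 1) for genes averaging 0.5 FPKM or more. P-values were adjusted by Benjamini-Hochberg over all these genes (threshold 0.05). The fit was tested on simulated data in which no sample stood apart from its group, unlike control replicate 1 here. The GC correction was tested with a GC trend planted in a simulated sample. Groups and replicate numbers came from the sample titles. Single ratios were compared by exact permutation tests. Alternatives were voom on recovered reads, a pseudocount of 0.1, no filter, at least 10 reads in every sample, scaling by total reads, the replicate block, a GC correction (spline with 5 degrees of freedom), both together, no intensity trend, and leaving out each sample. For the ratios the alternatives were leaving out each sample, the length of the longest transcript and, for the phosphorylases, the sum of Pygb and Pygl alone. Near-identical transcripts had 95% identity over at least 200 bases (BLAST+ 2.17.0). All 9 members had a RefSeq promoter window; motifs were chosen with the results known. Named genes were the members, a list of other glycogen genes (1 further gene is not reported here), genes overlapping members, the 3 nearest to Gys1 and to Ppp1r3c, a list of hypoxia-induced genes and marker lists. Members and lists were chosen with earlier results of these data known.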

Additional observations from a re-analysis of the deposited data

How the results depend on the processing

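The log2 fold changes of Gys1 and Ppp1r3c kept their direction and their call in all 15 alternatives. Members called higher were 2, and 1 with the replicate block, 4 with the GC correction and 4 when block and GC correction were joined; they ranged from 1 to 4 over the 6 analyses that left out 1 sample, with 4 only without control replicate 1. Members called lower were 1 throughout. With the replicate block the log2 fold change of Pygb was 0.39 and no longer called, 1161 of all tested genes were called higher and 698 lower, Phkg2 was not called, and Gys1 and Ppp1r3c kept their calls. Same-numbered samples did not deviate together (correlations across genes of -0.053, 0.00027 and -0.055). With 3 samples per group and control replicate 1 apart from the other controls, this cannot exclude a pairing, which the labels do not state. Gbe1 became called with voom (0.48), with at least 10 reads in every sample (0.35), after the GC correction (0.32) and when the block was added to it (0.32), and Ugp2 in the latter pair of fits (0.62 and 0.62). Gsk3b turned direction, to -0.018 when scaled by total reads, -0.065 after the GC correction and -0.065 when the block was added to it. Over all tested genes the median fold change shifted by -0.054 after the GC correction and by -0.025 after scaling to total reads. Other glycogen genes called lower were 0 without a filter and with the replicate block, and 2 with the GC correction. Genes called lower overall were 2433 after the GC correction, beside 2062 called higher, and 1888 when the block was added, beside 1703 higher, against 1177 and 1670 without either.

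Over the 6 analyses without 1 sample, all genes called higher ranged from 938 to 2969 and lower from 495 to 2590, other glycogen genes called higher from 2 to 5 and lower from 0 to 2, and the log2 fold changes of Gbe1 from 0.29 to 0.43, Ugp2 from 0.39 to 0.82, Pygb from 0.34 to 0.46, Gyg from -0.065 to 0.073, Gsk3a from -0.087 to 0.23 and Gsk3b from -0.050 to 0.10. Those of other genes that turned ranged from -0.067 to 0.14 for Stbd1, -0.22 to 0.074 for Ppp1r3b, -0.063 to 0.16 for Ppp1r3d, -0.025 to 0.24 for Ppp1r3e, -0.056 to 0.33 for Ppp1ca and -0.10 to 0.24 for Ppp1cb. The difference in the ratio of Gsk3a to Gsk3b ranged from -0.22 to 0.21. The cause of these changes was not tested. The other ratios kept their direction, but the difference in the share of Pygb among phosphorylases, 1.38 percentage points, was 0.0124 with Pygb and Pygl alone and 0.825 without metformin replicate 2. Depth limits Pygl, Gys2, Ppp1r3a, Ppp1r3g and Nhlrc1, with at most 1 read in a sample.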

Other observations

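A list of 12 genes known to be induced in hypoxia, several of which feed or drain glycolysis, stood beside the glycogen genes. Of these 9 were tested, and 4 were called higher with metformin and 1 lower by limma-trend, where 13.2% and 9.28% of all tested genes were. Ldha, the lactate dehydrogenase subunit, rose from 117 ± 6.78 to 228 ± 8.70 FPKM, Pdk1, a kinase that restrains pyruvate dehydrogenase, from 1.155 ± 0.286 to 3.38 ± 0.21, P4ha1, a collagen prolyl hydroxylase subunit, from 30.6 ± 3.13 to 52.3 ± 2.32 and Car9, a carbonic anhydrase, from 0.43 ± 0.24 to 1.62 ± 0.20 (SD, n = 3 each). Ndrg1 fell from 4.46 ± 0.25 to 2.91 ± 0.22 FPKM (SD, n = 3 each), against the direction of the other called genes. The rises were kept in all 15 alternatives, but the call for Ndrg1 was lost without metformin replicate 2 or 3 (adjusted p = 0.0517 and 0.0529). Vegfa, Bnip3, Slc2a1 and Ero1a (listed as Ero1l) did not pass the test with all samples, and Egln3, Ankrd37 and Adm were under the level filter. Untested Egln3 (means 0.203 and 0.611 FPKM) and Ankrd37 (0.144 and 0.753) were above all controls in every metformin sample, from at most 41 and 29 reads. Adm had at most 2 reads in a sample. Bnip3 was called higher in 5 of 15 alternatives and Ero1a in 3, both of them without control replicate 1 (adjusted p = 0.00994 and 0.00246 by limma-trend) and after the GC correction. Metformin samples were above all controls for 7 of the 9, where 23.6% of all tested genes were. Car9 passed the level filter only through its metformin samples, since its control mean of 0.43 FPKM lay under the limit of 0.5 FPKM. It counts among the 4 called higher and among these 7. The list was chosen with earlier results of these data known, and how these genes relate to the glycogen genes was not tested.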
